A study of Mus musculus with 2 samples.

Results

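The secreted inhibitors of Wnt signalling examined here are 10 genes, Frzb, Sfrp1, Sfrp2, Sfrp4, Sfrp5, Dkk1, Dkk2, Dkk3, Wif1 and Notum, out of 20657 genes with a named probe on the array. They were chosen by name, with earlier results of these data known. Their spots were those whose accession is a RefSeq transcript of the gene, with 1 probe and 1 spot per array each. RNA came from ATDC5, mouse chondrogenic cells in which a supplement of insulin, transferrin and selenite (ITS) induces cartilage nodules. One sample was a stable line with doxycycline-inducible A-CEBP, which dimerises with C/EBP transcription factors and, lacking a functional DNA-binding region, blocks their binding to DNA. The other was a stable line with doxycycline-inducible GFP. Per the labels doxycycline at 2 µg/mL was given to both lines for 2 days and differentiation with ITS lasted 3 weeks, so the drug and the supplement were common to both. The labels do not say whether each line was 1 clone, and expression of the transgenes was not checked. Each group held 1 sample on 1 array, so no difference between them could be tested and no p-value is given.

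Wnt proteins are lipid-modified signals that bind Frizzled receptors and the co-receptors Lrp5 and Lrp6, which leads to stabilisation of beta-catenin and transcription of its target genes. Secreted inhibitors act outside the cell at separate steps. Frzb and the Sfrp proteins carry a Frizzled-like cysteine-rich domain that binds Wnt, Wif1 binds Wnt through a domain of its own, Notum is an esterase that removes the lipid from Wnt, and Dkk1 binds the Lrp co-receptors. In cartilage the level of Wnt signalling influences whether chondrocytes keep their phenotype or proceed to hypertrophy, and Frzb is known as a gene of articular cartilage.

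The A-CEBP array had 58.0% and the GFP array 54.6% of its 59305 non-control spots marked well above background, with no saturated spot. Processed signals had a 75th percentile of 906 intensity units in the A-CEBP sample and 872 units in the GFP sample. Levels below are log2 of the processed signal relative to that percentile, and differences are A-CEBP minus GFP on the log2 scale. Over the 13860 genes that passed this mark on both arrays, here called measured, the median difference was 0.05, with quartiles of -0.10 and 0.19. Of 10 chondrocyte markers, 9 were measured, and Matn3 was not well above background on either array. The endothelial markers Cdh5 and Tek, the leukocyte markers Ptprc, Adgre1 and Cd79a and the adipocyte markers Cidec and Lep were not well above background on either array. Of the other adipocyte markers, Fabp4 had 824 units in the A-CEBP sample and 2993 units in the GFP sample. Plin1 and Adipoq were marked on the A-CEBP array alone. The bound for Plin1 was 1.33-fold higher, before measurement error, and Adipoq has no fold. The measured leukocyte markers Itgam (0.23), Cd3e (0.20) and Csf1r (-0.14) and endothelial markers Kdr (0.09) and Pecam1 (-0.20) were within 2-fold. The other measured probe had the opposite sign for Itgam (-0.57), Csf1r (0.36) and Kdr (-0.39), so their direction is not settled.

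Of the 10 inhibitor genes, 7 were well above background on both arrays, namely Frzb, Sfrp2, Sfrp4, Dkk1, Dkk3, Wif1 and Notum. All 7 read higher in the A-CEBP sample at some size, where 59.1% of all measured genes did. Frzb and Sfrp4 passed 2-fold upwards, which makes 2 of 7, against 1.26% of all measured genes. None was at least 2-fold lower, against 1.70% of all measured genes. With Notum, 3 of 7 were at least 1.5-fold higher, against 4.70% of all measured genes. The median difference of the 7 was 0.45, with a range from 0.08 to 1.24. Because the genes were chosen with earlier results known, these counts and shares are description only. In bulk RNA of this kind, more cells of a type and more RNA per cell cannot be told apart.

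**Figure D1:**
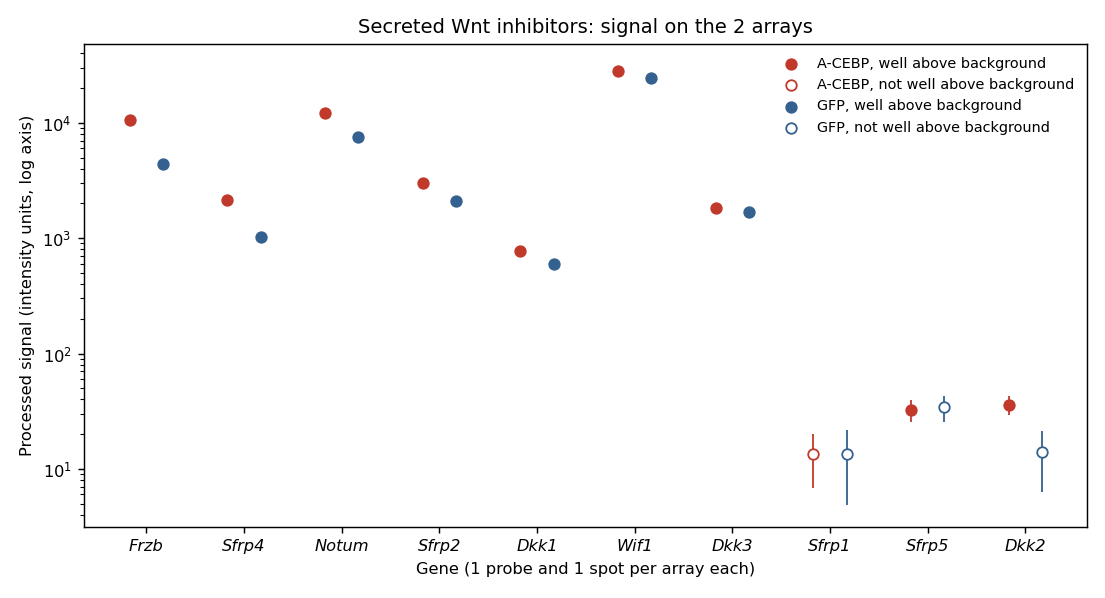
Processed signal in intensity units on a log axis for the 10 secreted Wnt inhibitors, with the A-CEBP array (red) left of the GFP array (blue) for each gene. Filled points are well above background, open points are not, and bars are the scanner's error, smaller than the point for the bright genes. The red point lies above the blue one for the 7 genes filled in both colours, and the last 3 genes lie under 40 units.

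Among the Frizzled-related proteins, Frzb (NM_011356) differed most. Its processed signal was 10678 units in the A-CEBP sample and 4363 units in the GFP sample, which gave a level of 3.56 in the A-CEBP sample and 2.32 in the GFP sample. The difference of 1.24 corresponds to 2.36-fold, and the scanner's error model gave it an SD of 0.20, so that 1 SD reaches from 1.03 to 1.44. Only 76 of the 13860 measured genes (0.548%) had a higher difference. Among 3152 genes whose mean level lay within 1 log2 unit of that of Frzb, 0.857% were at least 2-fold higher. The spot's raw median was 10107 units over a local background of 42 units on the A-CEBP array, and 4288 units over 45 units on the GFP array. The 16 neighbouring spots well above background, within 2 rows and columns, had a median difference of 0.03. Over the 10 inhibitor genes such medians ran from -0.14 around Notum to 0.14 around Dkk3. The latter exceeds the difference of Dkk3 itself, 0.08.

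Sfrp4 (NM_016687) encodes the Sfrp protein that is closest to Frzb in sequence. It had 2148 units in the A-CEBP sample and 1032 units in the GFP sample, a difference of 1.00 with an error-model SD of 0.20. The fold of 2.01 sits at the edge of the rule, and 1 SD reaches from 0.80 to 1.21. With cyclic loess the difference was 0.96, with normexp background 0.92, without background correction 0.92 and with the authors' deposited values 0.95, each short of 2-fold. In these same processings Frzb stayed past 2-fold, with a lowest value of 1.19. A total of 171 genes (1.23%) had a higher difference than Sfrp4.

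Sfrp2 (NM_009144), another Wnt-binding member expressed in mesenchyme, had 3001 units in the A-CEBP sample and 2120 units in the GFP sample. Its difference was 0.45 (1.36-fold, error-model SD 0.20), and 1078 genes (7.78%) had a higher one. Sfrp5 and Sfrp1, which with Sfrp2 form the other branch of the family, were faint. The Sfrp5 spot read 32.3 units in the A-CEBP sample, marked well above background, and 34.2 units in the GFP sample, not so marked, so the brighter reading was the one without the mark and no fold is given. The lowest signal that carried the mark was 24.8 units on the A-CEBP array and 32.9 units on the GFP array. Sfrp1 was not well above background on either array, at 13.5 units in the A-CEBP sample and 13.4 units in the GFP sample. The scanner's error for Sfrp1 was 6.62 units on the A-CEBP array and 8.52 units on the GFP array.

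**Figure D2:**
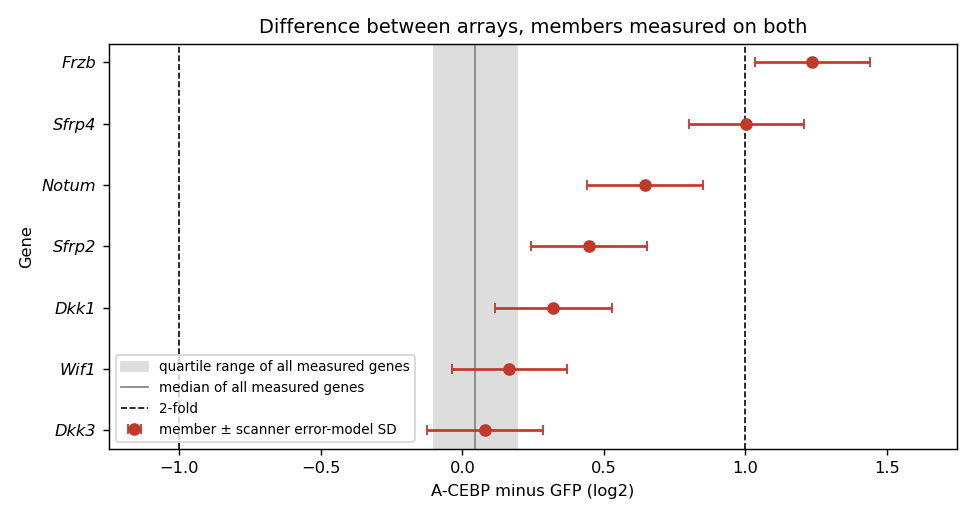
Difference between the arrays (A-CEBP minus GFP, log2) for the 7 genes measured on both, with bars of 1 scanner error-model SD on each side. The grey band spans the quartile range of all measured genes (-0.10 to 0.19), the grey line is their median (0.05) and dashed lines mark 2-fold. Frzb lies past 2-fold, Sfrp4 on the line, and Dkk3 and Wif1 inside the grey band.

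The gene starts of some members were examined because A-CEBP acts on C/EBP factors, which bind DNA. The RefSeq promoter table of GRCm38.p6 matched 6 of the 10 genes, Frzb, Sfrp2, Sfrp5, Dkk1, Dkk2 and Wif1. The 250 bases before the start of Frzb (chr2:80447397-80447646, minus strand), of Sfrp2 (chr3:83766071-83766320, plus strand) and of Wif1 (chr10:121033754-121034003, plus strand) are shown 5′ to 3′ in the direction of the gene, as the genes with the largest, a middle and a small difference among those matched. Capitals mark a C/EBP-type match.
Frzb: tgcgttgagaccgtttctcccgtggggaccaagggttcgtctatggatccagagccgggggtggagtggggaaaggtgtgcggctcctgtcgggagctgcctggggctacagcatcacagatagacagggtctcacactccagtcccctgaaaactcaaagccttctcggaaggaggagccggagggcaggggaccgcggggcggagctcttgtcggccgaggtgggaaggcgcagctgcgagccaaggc
Sfrp2: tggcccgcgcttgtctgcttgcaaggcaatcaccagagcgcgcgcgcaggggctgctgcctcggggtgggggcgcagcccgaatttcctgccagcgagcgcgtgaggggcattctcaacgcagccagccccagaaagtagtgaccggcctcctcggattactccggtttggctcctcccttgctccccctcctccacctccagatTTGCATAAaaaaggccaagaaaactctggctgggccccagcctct
Wif1: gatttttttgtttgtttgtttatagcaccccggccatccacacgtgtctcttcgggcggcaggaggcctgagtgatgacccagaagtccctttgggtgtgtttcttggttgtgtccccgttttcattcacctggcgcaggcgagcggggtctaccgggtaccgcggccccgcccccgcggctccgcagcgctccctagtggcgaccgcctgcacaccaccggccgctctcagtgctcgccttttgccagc
The C/EBP-type letters searched were TTGCNNAA and the TCF/LEF-type letters were ATCAAAG, each on both strands. Of the 6 windows, that of Sfrp2 held 1 C/EBP-type match, TTGCATAA, beginning 45 bases before the start, and it overlapped no TCF/LEF-type match. No other match of either motif lay in the 6 windows. Of all 32851 windows of the same length, 9.56% held the C/EBP-type letters and 3.21% the TCF/LEF-type letters. These matches describe letters and say nothing of binding. The GC content was 64.4% for Frzb, 63.6% for Sfrp2 and 62.8% for Wif1, and the median of all windows was 52.4%.

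Notum (NM_175263), the Wnt esterase and itself known as a target of beta-catenin signalling, had 12191 units in the A-CEBP sample and 7504 units in the GFP sample. The difference was 0.65, or 1.56-fold, with an error-model SD of 0.20, and 520 genes (3.75%) had a higher one. Wif1 (NM_011915) had 28321 units in the A-CEBP sample and 24321 units in the GFP sample. Its difference of 0.17 was smaller than its error-model SD of 0.20 and lay within the quartiles of all genes. Both spots of Wif1 were far above their local backgrounds of 45 units in the A-CEBP sample and 53 units in the GFP sample.

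Of the Dickkopf genes, Dkk1 and Dkk3 were measured on both arrays and Dkk2 has only a bound. Dkk1 (NM_010051), the inhibitor of the Lrp co-receptors, had 771 units in the A-CEBP sample and 594 units in the GFP sample, a difference of 0.32 with an SD of 0.21. Dkk3 (NM_015814), a divergent member of the family, had 1838 units in the A-CEBP sample and 1676 units in the GFP sample, a difference of 0.08 with an SD of 0.20. Dkk2 (NM_020265), which can inhibit or activate signalling depending on the Kremen co-receptors, was marked well above background on the A-CEBP array alone. It read 35.7 units there, with a scanner error of 6.69, and 13.9 units in the GFP sample, with an error of 7.57. Against the lowest probe well above background on the GFP array, the bound for Dkk2 was 1.04-fold higher under A-CEBP, which does not reach 2-fold. This bound takes no account of the scanner errors, so the direction for Dkk2 is not settled.

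**Figure D3:**
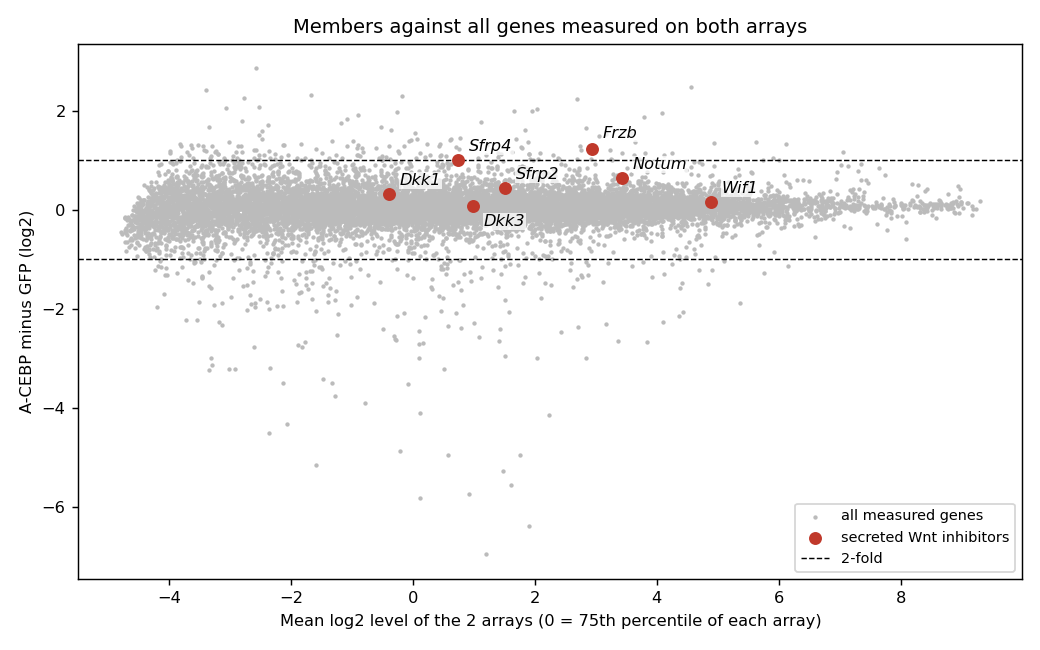
Difference between the arrays (A-CEBP minus GFP, log2) against the mean log2 level of both arrays for all 13860 measured genes (grey), with the 7 secreted Wnt inhibitors in red and dashed lines at 2-fold. Frzb lies above the upper line and above most genes of its brightness, while Dkk3 and Wif1 lie within the bulk.

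No member had a repeat spot or another named probe, so the precision of a difference was taken from other probes. Over 209 probes with repeat spots and a mean level of at least -1, a range that covers all 7 measured members, the SD of the difference between spots was 0.07. Between different probes of 1 gene in the same range it was 0.12, over 1974 genes. The scanner's error model, near 0.20 for all 7, is the widest of these errors. The differences of Frzb, Sfrp4, Notum and Sfrp2 were over 2 error-model SDs, which makes 4 of 7, and that of Dkk1 was over 1. The same count was not made over all genes, but 7.78% of all measured genes had a higher difference than Sfrp2, the smallest of these 4. With spike-in scaling Dkk1 (0.54) also passed 2 SDs. Sfrp2 fell under 2 SDs, leaving 3 of 7, with cyclic loess (0.40) and with the authors' deposited values (0.40). These errors cover the measurement and not the spread between cultures.

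Cartilage genes read higher in the same sample. Of the 9 chondrocyte markers measured on both arrays, 8 were higher at some size and 3 were at least 2-fold higher, against 59.1% and 1.26% of all measured genes. These were Ihh (1.56), Hapln1 (1.42) and Acan (1.30), as log2 differences. Col10a1 differed by 0.97, Col11a1 by 0.71, Col9a1 by 0.63 (its other probe by 0.19), Sox9 by 0.61, Col2a1 by 0.43 and Comp by -0.04. The median was 0.71, and the summed signal of the 9 was 448495 units in the A-CEBP sample and 312753 units in the GFP sample. Most of that sum was Col2a1, at 364462 units in the A-CEBP sample and 260748 units in the GFP sample. Of 4 measured osteoblast markers 3 were higher at some size, with Dmp1 at 1.31, Sp7 at 0.89, Ibsp at 0.15 and Phex at -0.07, a median of 0.52. Their summed signal was 70648 units in the A-CEBP sample and 59185 units in the GFP sample. Ibsp made up most of it, at 64202 units in the A-CEBP sample and 55634 units in the GFP sample. The part of a change in cell content or state in the differences of Frzb and Sfrp4 was not tested.

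The other genes of the pathway, 103 in 8 lists by role also chosen with earlier results known, gave 78 measured on both arrays. Of these, Lgr5, Lgr6 and Ccnd1 passed the 2-fold rule upwards and Celsr1 downwards, which makes 4 of 78, against 2.96% of all measured genes. The median difference of the 78 was 0.15, against 0.05 over all genes and 0.45 over the 7 inhibitors. It was 0.06 without the detection filter, 0.10 with the authors' deposited values and 0.37 with spike-in scaling.

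**Figure D4:**
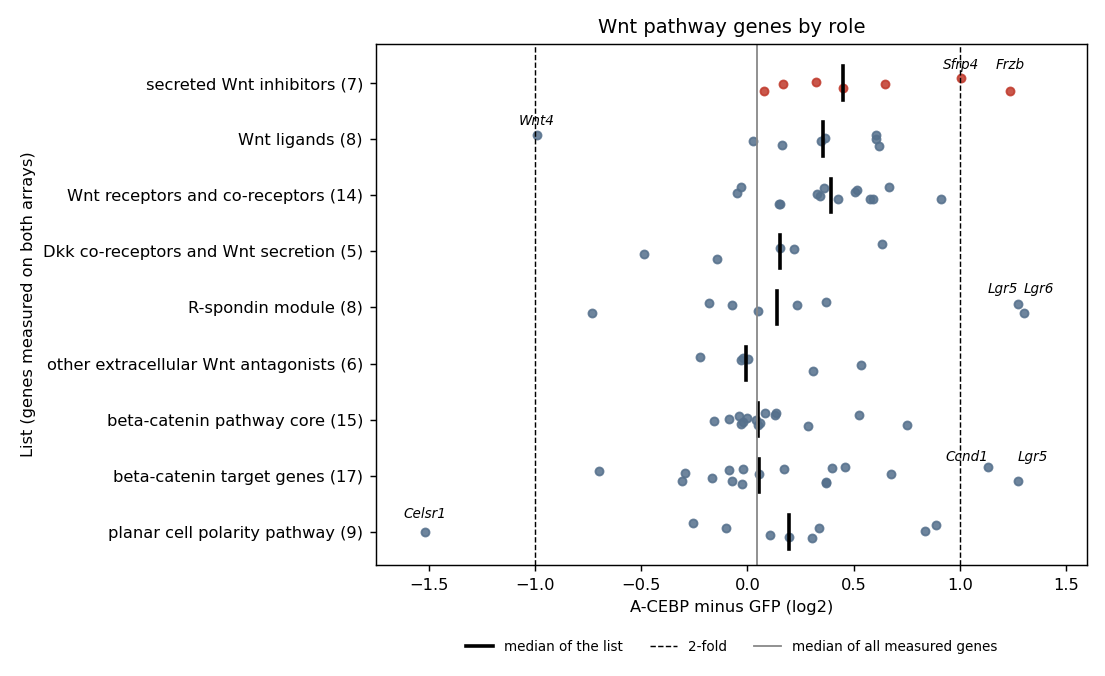
Difference between the arrays (A-CEBP minus GFP, log2) for each gene measured on both, by list, with the number of genes in brackets. Black bars are list medians, the grey line is the median of all measured genes and dashed lines mark 2-fold. Names are given for genes at or beyond about 2-fold. Notum, also known as a beta-catenin target, is counted with the inhibitors only. Medians of the secreted inhibitors (0.45), receptors (0.39) and ligands (0.36) lie right of those of the beta-catenin core (0.05) and target genes (0.05), but the ligand median was 0.0073 without the detection filter.

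Of the Wnt ligands, 8 of 19 were measured on both arrays and none was 2-fold apart. Wnt4 had 747 units in the A-CEBP sample and 1429 units in the GFP sample, a difference of -0.99, with its other probe at -0.68. It passed 2-fold lower with cyclic loess (-1.03) and with the authors' deposited values (-1.04). Wnt5a, the main ligand of beta-catenin-independent signalling, differed by 0.62 and Wnt9a by 0.61. Another 10 ligands were not well above background on either array. Wnt7b, marked on the A-CEBP array alone, had a bound of 1.13-fold higher, before measurement error. Of the receptors and co-receptors, 14 of 16 were measured, 12 read higher at some size, against 59.1% of all measured genes, and none was 2-fold apart. Fzd8 differed by 0.91 (1.13 with spike-in scaling), Fzd7 by 0.66 (its other probe by 0.36) and Fzd2 by 0.59. Among co-receptors of Dkk and genes of Wnt secretion and transport, Gpc6 differed by 0.63, Porcn, which encodes the enzyme that adds the lipid to Wnt, by -0.49 and Gpc4 by 0.22. Gpc6 was dim, at 72.4 units in the A-CEBP sample and 44.9 units in the GFP sample. Kremen2, a Dkk co-receptor marked on the GFP array alone, had a bound of at least 2.02-fold lower under A-CEBP. It was dim, at a level of -4.18 in the GFP sample, where the lowest marked probe was at -4.73. The bound takes no account of measurement error.

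Other antagonists of the pathway formed a list of 12, none of them 2-fold apart. Of these, Dkk4, Sost, Sostdc1, Cer1, Draxin and Shisa3 were not well above background on either array. The 6 that were measured had a median of -0.01, with Shisa2 at 0.53, Igfbp4 at 0.31 and Tpbg at -0.22. That median turned to 0.05 without scaling and 0.21 with spike-in scaling.

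In the R-spondin module, which influences the number of Wnt receptors at the cell surface, 2 of 8 measured genes were at least 2-fold higher, against 1.26% of all measured genes. Lgr5, an R-spondin receptor, had 4834 units in the A-CEBP sample and 1926 units in the GFP sample, a difference of 1.27. Lgr6, a relative of Lgr5, differed by 1.30, but it was dim, at 114 units in the A-CEBP sample and 44.7 units in the GFP sample, and the difference was 0.51 with normexp background. Rspo1 differed by -0.73, Rnf43 by 0.37 and Rspo2 by 0.23. Rspo1 was also dim, at 70.8 units in the A-CEBP sample and 113 units in the GFP sample. So was Rspo2, at 57.7 units in the A-CEBP sample and 47.3 units in the GFP sample. None of 15 genes of the beta-catenin core was 2-fold apart, with Pygo1 at 0.75, Tcf7l1 at 0.53 and Gsk3a at 0.29.

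Among genes known as targets of beta-catenin, 2 of 17 were at least 2-fold higher, against 1.26% of all measured genes. They were Lgr5, which is also in the R-spondin list, and the cell cycle gene Ccnd1. Ccnd1 had 5034 units in the A-CEBP sample and 2209 units in the GFP sample, a difference of 1.13. Axin2, a feedback inhibitor often read as a measure of the pathway, had 135 units in the A-CEBP sample and 81.8 units in the GFP sample, a difference of 0.67. Axin2 was dim as well, and only 1 of its 2 probes was measured on both arrays. Ccn4 differed by 0.46 and Ccn5 by -0.70. The median of the 17 was 0.05, as over all genes, and 9 of them read higher, near the 59.1% of all measured genes. Notum, itself known as a target, is counted among the inhibitors and not in this list. Tcf7, named after its values were seen, had probes that disagreed, at 0.37 and -1.62. In the planar cell polarity list, Celsr1 had 81.3 units in the A-CEBP sample and 224 units in the GFP sample, a difference of -1.52 that was -0.93 with normexp background. Celsr2 differed by 0.89, by 0.43 with normexp background and by 0.35 without background correction, and its other probe by -0.06. Daam2 differed by 0.84 (1.05 with spike-in scaling) and Prickle2, dim at 67.7 units in the A-CEBP sample and 51.6 units in the GFP sample, by 0.34. Celsr3, marked on the GFP array alone, had a bound of at least 2.35-fold lower under A-CEBP. It too was dim, at a level of -3.96 in the GFP sample, and its bound takes no account of measurement error.

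**Figure D5:**
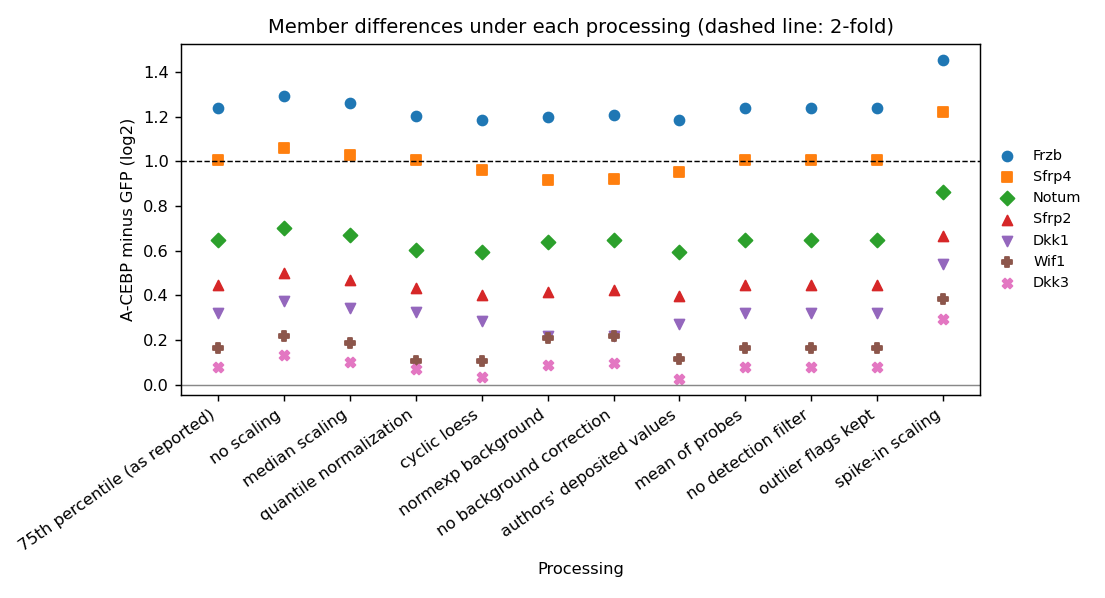
Difference between the arrays (A-CEBP minus GFP, log2) of the 7 measured inhibitors under the reported scaling and 11 other processings, with the dashed line at 2-fold. Frzb stays above the line in all 11, Sfrp4 lies on or above it in 7, and the other 5 genes stay below it and above 0.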

How the data were processed

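Per the labels' protocols, 0.1 µg total RNA per sample was labelled with Cy3 for a 1-colour Agilent mouse array. The authors deposited linear spot intensity values from Agilent Feature Extraction (10.10.1.1 in the submitters' processing notes). Per the headers of the scanner files, the processed signal in them was corrected for background and trend within an array and not scaled between arrays. The headers place both arrays on 1 slide in 1 scan. The authors' deposited table holds intensity equal to the processed signal times 1 constant per array, 1.15 for A-CEBP and 1.24 for GFP, with column medians of 67.4 and 70.9. No label or header says how these constants arose.

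The log2 processed signal minus the 75th percentile of the non-control spots was used. Control spots and 293 spots with outlier marks were left out, repeat spots were averaged, and a probe was called well above background when over 50% of its spots were so marked. Of 55671 probes, 27229 matched 1 gene of the RefSeq table of GRCm38.p6. A gene took its brightest probe measured on both arrays. A gene seen on 1 array only has a lower bound, its bright value against the higher of its dim value and the lowest value well above background on the dim array. These bounds take no account of measurement error, and an unmarked spot can read above the lowest marked one. The size rules were 2-fold and 1.5-fold. With 1 array per group no test was run, and the number of arrays limits the precision. The procedure was checked on simulated data, made by adding noise and known folds to the GFP array. That check set no requirement at 2-fold and holds no spread between cultures. Python 3.11.15, R 4.3.3 and limma 3.58.1 were used.

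The members and gene lists were chosen with earlier results of these data known. All 10 inhibitors and the chondrocyte markers were named whatever their value, and from each pathway list the genes at least 2-fold apart, the 3 further genes with the largest differences and bounds of 2-fold were named. Wnt7b, Tcf7 and the markers of other cell types fall outside that rule. The scanner files hold the median spot signal, which replaced the mean signal in the planned background alternatives. With 2 arrays, no genes with a similar pattern could be sought.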

Additional observations from a re-analysis of the deposited data

How the results depend on the processing

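The differences were recomputed under 11 other processings, of which scaling on spike-in controls was picked with the data already seen. All 7 measured inhibitors kept a positive difference in all 11. One inhibitor in place of 2 was at least 2-fold higher with cyclic loess, normexp background, no background correction and the authors' deposited values (1 each), all through Sfrp4, and none was 2-fold lower in any. Without the detection filter the count was 3, through Dkk2 (1.31), which was not well above background on the GFP array. Spike-in scaling brought the all-gene median to 0.26, against 0.05, that of the 7 inhibitors to 0.66 and that of the Wnt pathway lists to 0.37. It took the share of higher genes among those 2-fold apart to 66.1%, against 42.4%. The 410 genes at least 2-fold apart became 271 with normexp, 270 without background correction and 1486 without the detection filter, and the 4 pathway genes became 2, 2 and 10 in these settings, 7 with spike-in scaling, and 5 with cyclic loess and with the deposited values, where Wnt4 passed 2-fold. Without the detection filter the Wnt pathway median was 0.06 and the ligand median 0.0073. Small list medians changed sign. The beta-catenin core went to -0.0049 with cyclic loess and -0.00043 with the deposited values. Target genes went to -0.025 with the mean of probes and -0.020 without the filter. Other antagonists went to 0.046 without scaling, 0.015 with median scaling, 0.0019 with normexp and 0.21 with spike-in scaling. The cause of these changes was not tested. Signal over background limits Sfrp1, Sfrp5 and Dkk2, for which no fold of size was measurable. No paired analysis was possible because each group held 1 sample, and no replicate could be left out.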
